A study of Mus musculus with 11 samples.

Results

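Adhesion genes of leukocytes were followed in whole lacrimal glands of male NOD mice, a strain whose males spontaneously develop lacrimal gland inflammation. The 7 genes described are *Itgal*, *Itgb2*, *Itga4*, *Itgb7*, *Itgae* and *Itgb1*, which encode integrin chains, and *Selplg*, which encodes PSGL-1. They were chosen by name from the 19058 genes of the deposited count table, and all 7 passed the filter on low values, which asked for 30 or more counts summed over WT. No selectin gene is among the 7, and PSGL-1 is a ligand of selectins.

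One lacrimal gland per mouse was sequenced, from 3 WT, 5 *Tlr7* KO and 3 *Ifnar1* KO mice, all on the NOD background. The *Tlr7* KO mice carry a 2-bp deletion made by CRISPR/Cas9 in NOD embryos and descend from a single edited allele. The *Ifnar1* KO mice carry an edited *Ifnar1* allele in the same strain. Both edits are in the germline, so that the groups do not separate effects in leukocytes from effects in the gland. WT and *Tlr7* KO mice were 20 to 22 weeks old, and no age was found for the *Ifnar1* KO mice. A further *Ifnar1* KO gland was left out by the study before its tests, as it grouped with WT glands by expression and was as inflamed as they were. The *Ifnar1* KO group was thus chosen in part on the outcome, and each value given for it, against WT or against *Tlr7* KO, describes the 3 retained mice only. What that choice does to the values was not tested. Each KO was compared with the same WT mice, and the KO groups with each other, to ask which genes of the inflamed gland depend on TLR7, a sensor of single-stranded RNA, and on IFNAR1, a chain of the type I interferon receptor.

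Integrins are heterodimers of an alpha and a beta chain that leukocytes use to hold on to vessel walls, other cells and matrix. Rolling cells are first caught by selectins, which bind sugars displayed on PSGL-1. Chemokine signals then switch integrins to a form that binds tightly. The chain encoded by *Itgal* pairs with that of *Itgb2* to form LFA-1, whose ligands are the ICAM proteins. The alpha-4 chain, encoded by *Itga4*, pairs with the chain of *Itgb1* to form VLA-4, a receptor for VCAM-1 and fibronectin, or with that of *Itgb7* to form the gut-homing receptor for MAdCAM-1. The chain of *Itgae* (CD103) also pairs with that of *Itgb7* and binds E-cadherin on epithelial cells. The beta-1 chain has many other partners and is made by epithelial cells, fibroblasts and endothelium as well as by leukocytes.

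Promoter sequences are shown for *Itga4* and *Itgb7*, which were called lower in both KO groups, and for *Itgb1*, which was not, since these are the 3 of the 7 genes matched in the promoter table. Each sequence runs 5′ to 3′ on the strand of its gene, from 250 bases before to 50 bases after the start of the gene in RefSeq on GRCm38.p6. Capitals mark matches on either strand to GAGGAA (the core bound by PU.1 and related ETS factors), TGTGGT (the RUNX core), GGGCGG (a GC box) and TATAAA.

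*Itga4*, chr2:79255176-79255475, plus strand: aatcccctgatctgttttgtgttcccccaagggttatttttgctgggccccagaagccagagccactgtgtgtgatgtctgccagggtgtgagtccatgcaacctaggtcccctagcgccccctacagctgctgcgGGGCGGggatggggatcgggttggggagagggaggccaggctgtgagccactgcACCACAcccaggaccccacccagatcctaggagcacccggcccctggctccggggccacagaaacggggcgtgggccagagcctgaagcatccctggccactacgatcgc

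*Itgb7*, chr15:102231886-102232185, minus strand: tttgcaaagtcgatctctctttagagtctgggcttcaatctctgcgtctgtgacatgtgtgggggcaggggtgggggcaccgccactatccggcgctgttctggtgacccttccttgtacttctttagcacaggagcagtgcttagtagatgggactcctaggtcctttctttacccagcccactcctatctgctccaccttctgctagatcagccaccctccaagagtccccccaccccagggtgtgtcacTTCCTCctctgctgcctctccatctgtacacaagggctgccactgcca

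*Itgb1*, chr8:128685404-128685703, plus strand: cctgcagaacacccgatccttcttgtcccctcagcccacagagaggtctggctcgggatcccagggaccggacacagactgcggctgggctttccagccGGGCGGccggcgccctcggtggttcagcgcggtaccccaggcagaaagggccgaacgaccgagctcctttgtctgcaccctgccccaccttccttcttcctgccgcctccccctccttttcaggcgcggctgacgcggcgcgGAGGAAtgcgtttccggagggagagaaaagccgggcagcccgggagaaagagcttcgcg

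The *Itga4* window held the RUNX core on the opposite strand, printed as ACCACA, at position -60 from the start, and a GC box at -114. The *Itgb7* window held the ETS core on the opposite strand, printed as TTCCTC, at position 2. In the *Itgb1* window the ETS core lay at position -9 and a GC box at -151. None of the 3 windows held TATAAA. Of the 32851 windows of this length in the table, 28.3% held GAGGAA, 16.8% TGTGGT, 35.7% GGGCGG and 13.6% TATAAA, so that these matches are common and describe the sequence only.

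Between 20512315 and 28814250 counts per mouse were assigned to genes. The 10 most abundant genes took 54.0% to 65.9% of them, and TMM factors ran from 0.688 to 1.48. A floor of 3 counts corresponded to 0.0820 to 0.158 CPM (counts scaled to a common library size with these factors), which covers counting error only. The 7 genes had between 13 counts, for *Itgae* in *Ifnar1* KO 3, and 1977 counts, for *Itgb1* in WT 3. The gland was checked by epithelial markers, whose 7 summed levels were 519 to 646 CPM in WT, 696 to 792 CPM in *Tlr7* KO and 699 to 737 CPM in *Ifnar1* KO mice. Of these, 1 was called lower and 2 higher in *Tlr7* KO, where 32.7% of all genes tested were called and 17.4% were called lower. This leaves out *Krt19*, which passed the filter on low values only through WT (1 to 8 counts in the KO mice) and is not read further. Markers of neighbouring tissue differed between libraries. Summed salivary gland markers were highest in WT 3 (2427 CPM) and *Ifnar1* KO 2 (2062 CPM). Their median was 178 CPM in *Ifnar1* KO, against 6.41 CPM in WT and 6.12 CPM in *Tlr7* KO. Summed muscle markers reached 351 CPM in WT 1, 253 CPM in WT 2 and 248 CPM in *Tlr7* KO 4, against at most 9.86 CPM in each of the other 8 mice. Their part in the results was not tested. The targeted genes were lower in their own KO but still detected. *Tlr7* ran from 1.52 to 2.94 CPM in WT and from 0.494 to 0.949 CPM in *Tlr7* KO mice, and *Ifnar1* from 10.5 to 15.1 CPM in WT mice against 8.34 to 9.63 CPM in *Ifnar1* KO mice. *Tlr7* was also called lower in *Ifnar1* KO (0.251 to 0.822 CPM) and *Ifnar1* in *Tlr7* KO (8.34 to 11.2 CPM), so that neither level tells the KO groups apart. A deletion as small as that in *Tlr7* need not remove the RNA, and these levels alone do not check the labels.

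Within WT lacrimal glands the 7 genes stood at very different levels per length, given as CPM per kilobase of the union of annotated exons. *Itgb1* was highest at 13.1 ± 0.875 CPM per kb (SD, n = 3). *Itgb2* followed at 5.18 ± 2.47, *Itgb7* at 4.50 ± 2.07, *Selplg* at 3.31 ± 1.72, *Itgal* at 2.02 ± 1.02, *Itgae* at 0.677 ± 0.236 and *Itga4* at 0.660 ± 0.296. Over the WT mice the range of *Itgb1* lay above that of *Itgb2*, and the range of *Itgal* above that of *Itgae*. All other neighbours in this order overlapped. In *Tlr7* KO and *Ifnar1* KO mice *Itgb1* was at 11.6 ± 0.279 (SD, n = 5) and 11.7 ± 1.10 (SD, n = 3) CPM per kb, while the next gene, *Itgb2*, was at 1.78 ± 0.629 and 1.05 ± 0.813. There *Itgb1* stood clear of *Itgb2* and all other neighbours overlapped. With the length of the longest transcript, *Selplg* moved up to the second place in WT, at 6.11 CPM per kb.

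LFA-1 is described first. *Itgal* (ENSMUSG00000030830, chr7:127296260-127335138) was measured at 17.3, 5.52 and 17 CPM in WT 1, 2 and 3, at 3.83, 6.52, 2.35, 2.31 and 3.06 CPM in *Tlr7* KO 1 to 5, and at 1.57, 5.23 and 0.837 CPM in *Ifnar1* KO 1 to 3. WT 1 and WT 3 were above every KO mouse, whereas WT 2 was below *Tlr7* KO 2 and above all *Ifnar1* KO mice. The level was 3.70 times lower in *Tlr7* KO than in WT (log2 fold change -1.89, 95% interval -2.82 to -0.95, adjusted p = 0.00931) and 5.33 times lower in *Ifnar1* KO (-2.41, -4.01 to -0.82, adjusted p = 0.0476). The latter call was lost with the size factors of DESeq2 in place of TMM (-2.40, adjusted p = 0.0501). Adjusted p values of single genes are from the quasi-likelihood test of edgeR, corrected by Benjamini-Hochberg across 13937 genes. In a bulk gland, fewer leukocytes and less RNA per leukocyte cannot be told apart.

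*Itgb2* (ENSMUSG00000000290, chr10:77530252-77565708), whose chain is shared by LFA-1, Mac-1 and the other beta-2 integrins, was at 21.9, 7.38 and 18.2 CPM in the WT mice. It was at 5.20, 8.74, 4.14, 4.04 and 5.01 CPM in *Tlr7* KO 1 to 5, and at 2.31, 6.01 and 1.30 CPM in *Ifnar1* KO 1 to 3. The order of the 11 mice was the same as for *Itgal*, with *Tlr7* KO 2 again above WT 2. The log2 fold change was -1.55 in *Tlr7* KO (95% interval -2.33 to -0.78, adjusted p = 0.00952) and -2.33 in *Ifnar1* KO (-3.71 to -0.95, adjusted p = 0.0364).

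Both chains of the alpha-4 beta-7 receptor were also lower in the KO lacrimal glands. *Itga4* (ENSMUSG00000027009, chr2:79255426-79333123) was at 12.2, 4.51 and 10.9 CPM in the WT mice, at 3.71, 4.48, 2.43, 2.47 and 3.17 CPM in *Tlr7* KO 1 to 5, and at 1.97, 3.29 and 1.47 CPM in *Ifnar1* KO 1 to 3. Every WT mouse was above every KO mouse, although WT 2 exceeded *Tlr7* KO 2 by little. *Itga4* had a log2 fold change of -1.51 in *Tlr7* KO (95% interval -2.22 to -0.81, adjusted p = 0.00740) and of -2.07 in *Ifnar1* KO (-3.09 to -1.05, adjusted p = 0.0254). Over the alternatives run it ranged from -2.13 to -1.26 and from -2.64 to -1.81. In WT, *Tlr7* KO and *Ifnar1* KO its mean level was 0.660, 0.233 and 0.160 CPM per kb. With the second count table it was 0.604, 0.140 and 0.0978, so the size of its fall depended on the table.

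*Itgb7* (ENSMUSG00000001281, chr15:102215995-102231944) was at 16.4, 5.90 and 15.1 CPM in the WT mice. In *Tlr7* KO 1 to 5 it was at 2.45, 6.26, 1.18, 1.85 and 2.90 CPM, and in *Ifnar1* KO 1 to 3 at 2.01, 3.14 and 0.753 CPM. In the reported fit its estimates were the lowest of the 7 genes in both comparisons with WT, although WT 2 was below *Tlr7* KO 2. The level was 4.30 times lower in *Tlr7* KO (log2 fold change -2.10, 95% interval -3.18 to -1.02, adjusted p = 0.0108) and 6.44 times lower in *Ifnar1* KO (-2.69, -3.95 to -1.42, adjusted p = 0.0241). The intervals of *Itgal*, *Itgb2*, *Itga4* and *Itgb7* overlap widely, and the order of their fold changes was not tested except for the chain pairs given further on.

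*Itgae* (ENSMUSG00000005947, chr11:73090583-73147446) rested on the fewest counts of the 7 genes, 13 to 135 per mouse. It was at 3.76, 1.86 and 3.69 CPM in the WT mice, at 2.10, 2.04, 2.05, 0.824 and 1.11 CPM in *Tlr7* KO 1 to 5, and at 1.70, 2.43 and 0.544 CPM in *Ifnar1* KO 1 to 3. WT 2 was within the range of both KO groups. The log2 fold change was -0.93 in *Tlr7* KO (95% interval -1.71 to -0.16, adjusted p = 0.0643) and -1.02 in *Ifnar1* KO (-2.21 to 0.16, adjusted p = 0.183), and neither passed the threshold of 0.05.

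*Itgb1* (ENSMUSG00000025809, chr8:128685654-128733200) varied least between mice. It was at 56.9, 49.8 and 54.0 CPM in the WT mice, at 48.1, 46.2, 46.3, 47.3 and 48.8 CPM in *Tlr7* KO 1 to 5, and at 52.4, 47.1 and 43.5 CPM in *Ifnar1* KO 1 to 3. Every WT mouse was above every *Tlr7* KO mouse, but by a small amount. The log2 fold change was -0.18 in *Tlr7* KO (95% interval -0.34 to -0.03, adjusted p = 0.0698) and -0.19 in *Ifnar1* KO (-0.46 to 0.07, adjusted p = 0.258). The call in *Tlr7* KO depended on the setting, and was made with DESeq2, with filterByExpr and in the second count table (adjusted p = 0.0349, 0.0475 and 0.0361). With TMM scaling the intervals thus leave out a fall as deep as those estimated for the other 6 genes.

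*Selplg* (ENSMUSG00000048163, chr5:113818536-113832644) was at 19.5, 5.78 and 17.2 CPM in the WT mice, at 5.66, 11.6, 4.59, 5.39 and 6.91 CPM in *Tlr7* KO 1 to 5, and at 3.03, 5.53 and 1.93 CPM in *Ifnar1* KO 1 to 3. WT 2 was below *Tlr7* KO 2 and *Tlr7* KO 5 and just above the highest *Ifnar1* KO mouse. Its log2 fold change was -1.06 in *Tlr7* KO (95% interval -1.94 to -0.19, adjusted p = 0.0626), which did not pass the threshold, and -2.05 in *Ifnar1* KO (-3.26 to -0.83, adjusted p = 0.0365), which did.

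**Figure D1:**
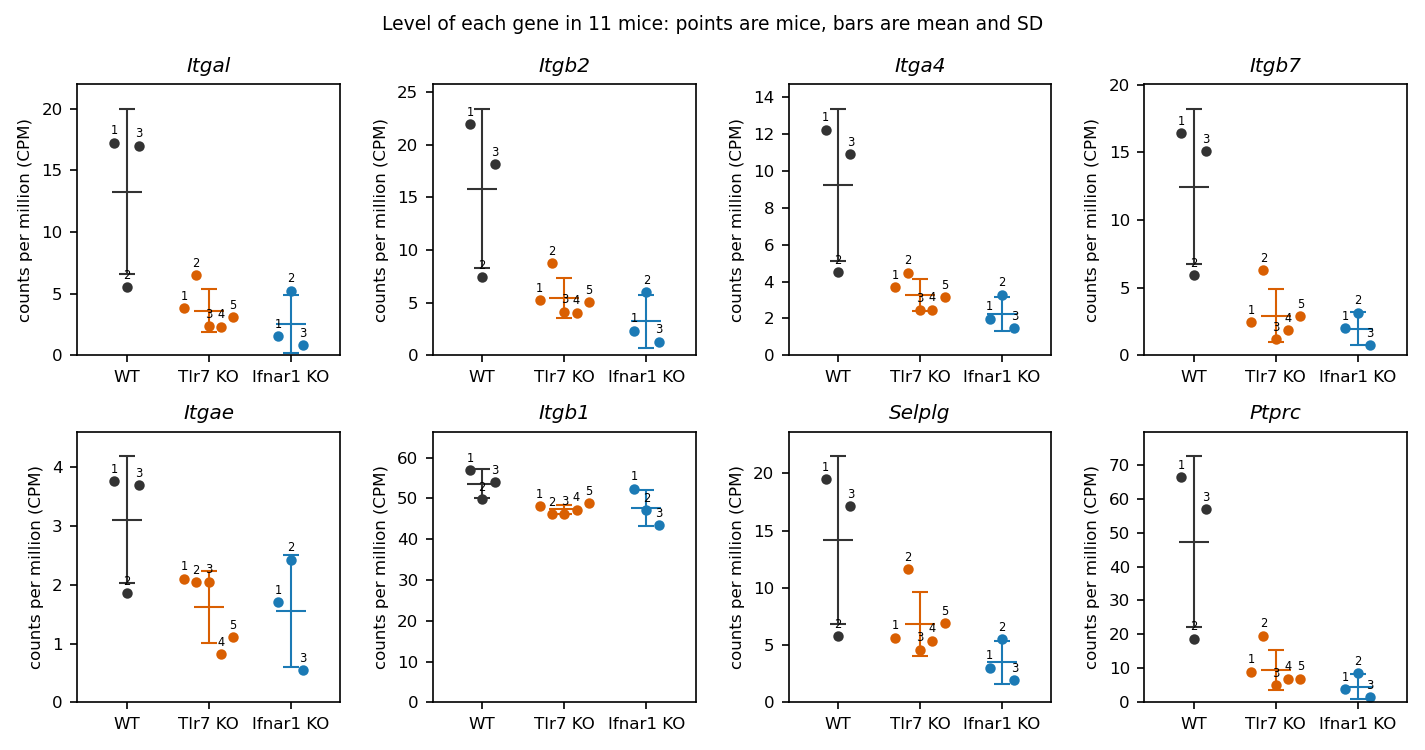
Levels of the 7 genes and of *Ptprc* in CPM on linear axes from 0, with a numbered point per mouse and the mean and SD of each group. WT 2 lies apart from WT 1 and WT 3 except for *Itgb1*, whose 11 values sit between 43.5 and 56.9 CPM.

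In all, 4 of the 7 genes were called in *Tlr7* KO against WT, all lower in KO, where 32.7% of the genes tested were called and 17.4% were called lower. All 7 had an unadjusted p under 0.05, as had 44.9% of the genes tested. In *Ifnar1* KO against WT 5 of the 7 were called, again all lower, against 19.2% of genes called and 12.4% called lower. The size factors of DESeq2 gave 4, leaving out *Itgal*, with 2681 of 13937 genes called. The 5 called with TMM were also the 5 with an unadjusted p under 0.05, which 37.6% of genes had. *Itgal*, *Itgb2*, *Itga4* and *Itgb7* were called in both comparisons. The WT mice are shared between these comparisons, which are therefore not independent. Over the 7 genes the median estimate was -1.51 for *Tlr7* KO and -2.07 for *Ifnar1* KO, where all genes tested had medians of -0.04 and -0.02. Every mouse of the KO group was below every WT mouse for 2 of the 7 genes in *Tlr7* KO (14.2% of genes tested) and for 5 of the 7 in *Ifnar1* KO (21.1%).

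**Figure D2:**
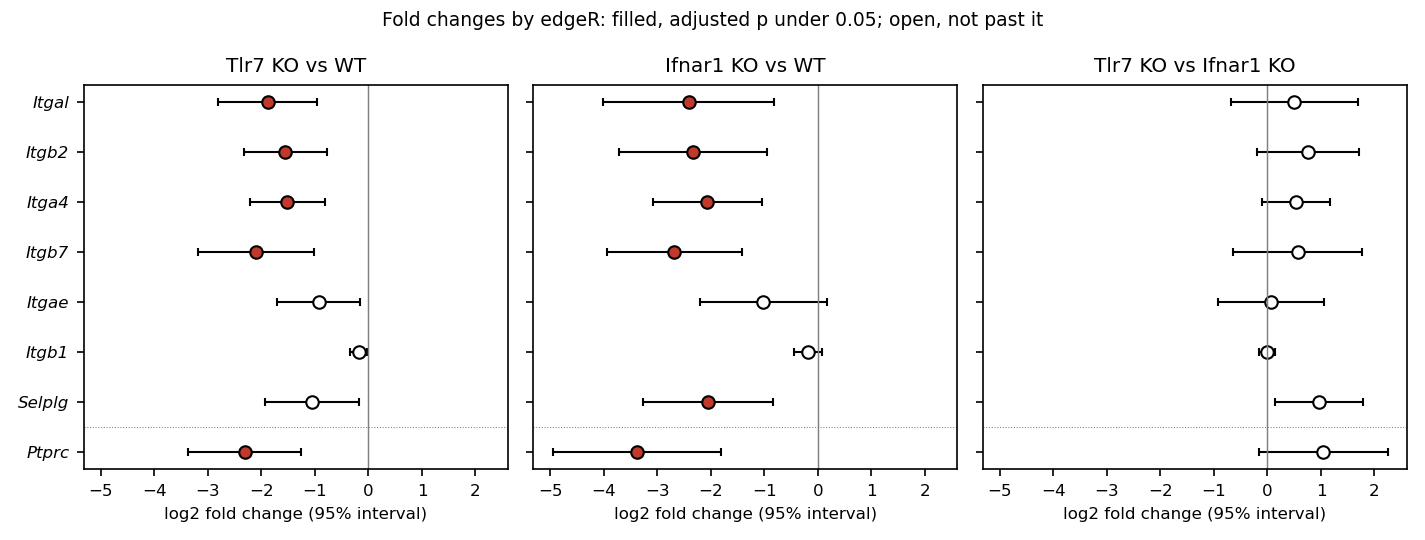
Log2 fold changes with 95% intervals for the 7 genes, and below the dotted line for *Ptprc*, in 3 comparisons on a common axis. Filled points passed an adjusted p of 0.05: 4 of the 7 genes in *Tlr7* KO against WT, 5 in *Ifnar1* KO against WT and none between the KO groups.

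A single mouse decided some of these counts. WT 2 had lower values than WT 1 and WT 3 for all 7 genes. Without it, all 7 were called in *Tlr7* KO, with *Selplg* at a log2 fold change of -1.43 (adjusted p = 0.00358), and 5 were called in *Ifnar1* KO, but more of all genes were called as well, 6663 and 4666 of 13937 in place of 4564 and 2677. Without *Tlr7* KO 2, *Selplg* joined the genes called in *Tlr7* KO (-1.34, adjusted p = 0.0232), with 4298 of all genes called. Leaving out WT 1, WT 3, *Ifnar1* KO 1 or *Ifnar1* KO 3 brought the number called in *Ifnar1* KO from 5 to 0, with 5 at an unadjusted p under 0.05 each time and 0 to 121 of all genes called. All 7 estimates stayed below 0 in both comparisons with WT under all of these omissions. DESeq2 called 7 of the 7 genes in *Tlr7* KO and 5 in *Ifnar1* KO, and 4599 and 3356 of all genes. Scaling by library size alone moved the median of all genes to -0.54 in *Tlr7* KO and -0.31 in *Ifnar1* KO, and *Itgb1* then stood at -0.70 and -0.49.

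Between the KO groups none of the 7 genes was called with edgeR, and none with DESeq2, where 1.79% of genes tested were called by edgeR. *Selplg* alone had an unadjusted p under 0.05 with either tool, as had 16.3% of genes with edgeR. Its log2 fold change was 0.96 in *Tlr7* KO relative to *Ifnar1* KO (95% interval 0.14 to 1.78, adjusted p = 0.237). For the other genes the estimates were 0.75 for *Itgb2* (-0.20 to 1.71), 0.56 for *Itgb7* (-0.64 to 1.77), 0.53 for *Itga4* (-0.11 to 1.18), 0.50 for *Itgal* (-0.69 to 1.69), 0.06 for *Itgae* (-0.93 to 1.05) and -0.01 for *Itgb1* (-0.16 to 0.15). The intervals for *Selplg*, *Itgal*, *Itgb2*, *Itga4*, *Itgb7* and *Itgae* include differences of more than 2-fold, so equal levels in the KO groups were not shown. *Ifnar1* KO 3 had the lowest level of the 11 mice for each of the 7 genes, and *Ifnar1* KO 2 the highest of its group except for *Itgb1*. Without *Ifnar1* KO 2, *Itgb2* (1.57, adjusted p = 0.0304) and *Selplg* (1.45, adjusted p = 0.0482) were called higher in *Tlr7* KO, and the calls over all genes went from 250 to 877 of 13937.

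Chains that form a heterodimer were then set against each other in each mouse as a difference in log2 CPM, which is free of gene length when compared between groups. The 5 pairs were compared in 3 ways with a two-sided exact permutation test, 15 tests in all. The smallest p that these designs allow is 0.0179 for 3 mice against 5 and 0.1 for 3 against 3, so that *Ifnar1* KO against WT could not pass. None passed an adjusted p of 0.05, the lowest being 0.179.

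For *Itgal* and *Itgb2*, the LFA-1 chains, the difference was -0.34, -0.41 and -0.09 in the WT mice and ran from -0.79 to -0.42 in *Tlr7* KO mice and from -0.59 to -0.20 in *Ifnar1* KO mice. All *Tlr7* KO mice were below all WT mice, but by as little as the gap between -0.42 and -0.41, and the means differed by -0.34 (exact permutation p = 0.0357, adjusted p = 0.179). In *Ifnar1* KO the difference from WT was -0.16 (exact permutation p = 0.4, adjusted p = 0.5).

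For the VLA-4 chains, *Itga4* minus *Itgb1* was -2.21, -3.44 and -2.30 in the WT mice, -4.22 to -3.34 in *Tlr7* KO mice and -4.82 to -3.81 in *Ifnar1* KO mice. WT 2 was within the *Tlr7* KO range and above the *Ifnar1* KO range. The mean was lower than in WT by 1.22 in *Tlr7* KO and by 1.79 in *Ifnar1* KO (exact permutation p = 0.0357 and 0.1, adjusted p = 0.179 for both). For *Itgb7* against *Itgb1*, the alternative partners of *Itga4*, it was lower by 1.97 and by 2.52 (exact permutation p = 0.0536 and 0.1, adjusted p = 0.179 for both).

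The partners of *Itgb7* had higher means relative to it in the KO mice, but for *Itga4* the size depended on the count table. The mean of *Itga4* minus *Itgb7* was above that of WT by 0.75 in *Tlr7* KO and 0.73 in *Ifnar1* KO. With the second count table these differences were only 0.19 and 0.16. *Itga4* minus *Itgb7* was within -0.46 to -0.38 in the WT mice, and was -0.48 in *Tlr7* KO 2 but 0.12 to 1.0 in the other 4 *Tlr7* KO mice and -0.02 to 0.89 in *Ifnar1* KO mice. *Itgae* minus *Itgb7* was -2.10, -1.63 and -2.01 in the WT mice, -0.21, -1.58, 0.76, -1.10 and -1.33 in *Tlr7* KO 1 to 5, and -0.23, -0.36 and -0.42 in *Ifnar1* KO 1 to 3. Every KO mouse was above every WT mouse in *Itgae* relative to *Itgb7*, with means higher by 1.22 in *Tlr7* KO and 1.58 in *Ifnar1* KO (exact permutation p = 0.0893 and 0.1, adjusted p = 0.179 for both). Between the KO groups none of the 5 pairs was separated, and the smallest exact permutation p was 0.125, for *Itga4* minus *Itgb1*.

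**Figure D3:**
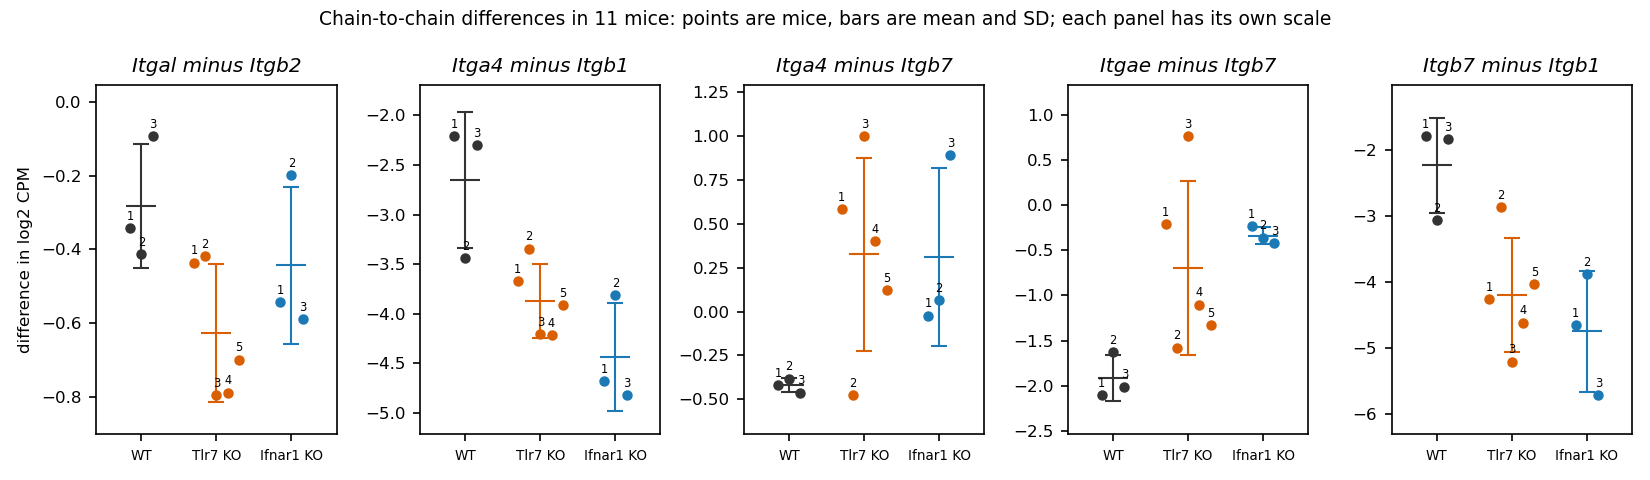
Difference in log2 CPM between the chains of 5 pairs, with a numbered point per mouse and the mean and SD of each group, each panel on its own scale. *Itgae* minus *Itgb7* lies at -2.10 to -1.63 in the WT mice and at or above -1.58 in every KO mouse.

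*Ptprc*, which encodes CD45 and is expressed by all leukocytes, served as a reference for their amount. It was at 66.2, 18.8 and 56.9 CPM in the WT mice, at 9.03, 19.7, 5.13, 6.96 and 7.02 CPM in *Tlr7* KO 1 to 5, and at 3.85, 8.55 and 1.47 CPM in *Ifnar1* KO 1 to 3. The mouse order of *Itgal* and *Itgb2* was close to this one, with WT 2 and *Tlr7* KO 2 side by side. *Ptprc* was 4.97 times lower in *Tlr7* KO (log2 fold change -2.31, adjusted p = 0.00684) and 10.4 times lower in *Ifnar1* KO (-3.38, adjusted p = 0.0235), lower estimates than for any of the 7 genes. The 8 pan-leukocyte markers, *Ptprc* included, were all called lower in both KO groups, with median log2 fold changes of -2.02 and -2.94. Of all genes tested, 17.4% were called lower in *Tlr7* KO and 12.4% in *Ifnar1* KO. For these 8 markers the median estimates of all genes are those given above. The summed level of the 8 pan-leukocyte markers was 139 to 442 CPM in WT, 48.9 to 142 CPM in *Tlr7* KO and 19.5 to 70.7 CPM in *Ifnar1* KO mice.

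Relative to *Ptprc*, none of the 7 genes had a lower mean in KO than in WT lacrimal glands. *Selplg* minus *Ptprc*, in log2 CPM, was -1.76, -1.69 and -1.72 in the WT mice, the tightest of the 7 within WT. It was -0.67, -0.76, -0.16, -0.36 and -0.02 in *Tlr7* KO 1 to 5, and -0.34, -0.62 and 0.38 in *Ifnar1* KO 1 to 3. All KO mice were above all WT mice, including *Tlr7* KO 2 and WT 2, which had nearly the same level of *Ptprc*. The mean was higher by 1.33 in *Tlr7* KO (exact permutation p = 0.0179, the smallest possible) and by 1.53 in *Ifnar1* KO (exact permutation p = 0.1, the smallest possible). None of the 21 comparisons of this kind passed the adjustment, and the lowest adjusted p was 0.14.

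*Itgb2* was likewise higher relative to *Ptprc* in every *Tlr7* KO mouse than in any WT mouse, by 0.82 in the mean (exact permutation p = 0.0179, adjusted p = 0.14). For *Itgal* the mean difference was 0.48 and for *Itgae* 1.35, without overlap of the groups (exact permutation p = 0.0357 for both, adjusted p = 0.14). *Itga4* and *Itgb1* differed by 0.87 and 2.09 with overlap (exact permutation p = 0.0536 and 0.0357, adjusted p = 0.14). With the second count table the difference of *Itga4* was only 0.37. *Itgb7* differed by 0.13 only (exact permutation p = 0.536, adjusted p = 0.536). In *Ifnar1* KO mice all 7 genes were higher relative to *Ptprc* than in any WT mouse, by 0.78 for *Itgb7* up to 3.30 for *Itgb1* (exact permutation p = 0.1 and adjusted p = 0.14 for each). These differences depended on the reference. With the mean of the 8 pan-leukocyte markers in place of *Ptprc* they were smaller for all 7 genes in both KO groups. In *Tlr7* KO *Itgb7* was then lower relative to the markers, at -0.22, and *Itgal* was at 0.13 (exact permutation p = 0.268), *Itgb2* at 0.48 and *Itga4* at 0.53. In *Ifnar1* KO *Itgal* went from 0.90 to 0.40, *Itgb7* from 0.78 to 0.28, and *Itgb2* was at 0.56. *Itgb1* is also made by the gland's own cells, and the cells that carry each gene were not separated.

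**Figure D4:**
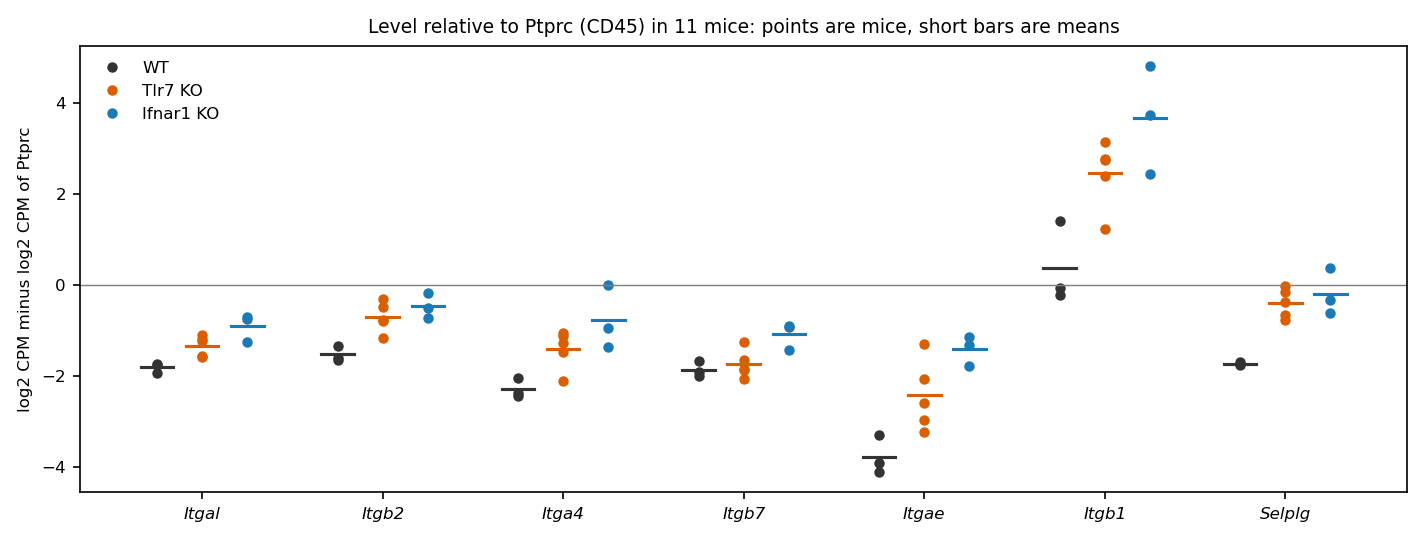
Log2 CPM of each of the 7 genes minus that of *Ptprc*, with a point per mouse and short bars for group means. *Itgb7* overlaps between WT and *Tlr7* KO, with means of -1.86 and -1.73, whereas *Selplg* in all 8 KO mice lies above the WT mean of -1.73.

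T and B cell markers were called lower in both KO groups with a single exception, myeloid markers in part, and neutrophil markers not at all. Beside these counts and those of the gene lists further on, 17.4% of all genes tested were called lower in *Tlr7* KO and 12.4% in *Ifnar1* KO. Of 8 T cell markers, 7 were called lower in *Tlr7* KO and 8 in *Ifnar1* KO, and their summed level was 22.6 to 70.2 CPM in WT, 4.78 to 27.6 CPM in *Tlr7* KO and 1.30 to 13.2 CPM in *Ifnar1* KO mice. All 6 B cell markers were called lower in both, with medians of -3.27 and -4.28 and summed levels of 72.7 to 252, 6.26 to 44.8 and 2.51 to 18.6 CPM. *Ms4a1*, which encodes the B cell protein CD20, was at 0 counts in *Ifnar1* KO 3, the mouse with the lowest level of all 7 genes. Of 7 myeloid markers, 3 were called lower in *Tlr7* KO and 5 in *Ifnar1* KO, with medians of -0.63 and -1.62 and summed levels of 245 to 451, 203 to 242 and 60.1 to 178 CPM. None of the 3 neutrophil markers tested was called in either. *Mpo* had 0.73 and 0.56 (adjusted p = 0.358 and 0.485) and *Csf3r* -0.74 and -1.93 (adjusted p = 0.235 and 0.0740). *S100a9* had 2 to 16 counts in WT, 3 to 8 in *Tlr7* KO and 1 to 7 in *Ifnar1* KO mice, so that it was tested through WT alone. The medians of this list, -0.35 and -1.0, are its estimates and are not read. Neutrophil markers had summed levels of 1.12 to 4.72 CPM over all mice. The part of these cell types in the results for the 7 genes was not tested.

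The endothelial selectins were near the floor. *Selp* ran from 0.126 to 0.650 CPM in WT, from 0.565 to 0.741 CPM in *Tlr7* KO and from 0.209 to 0.544 CPM in *Ifnar1* KO mice, and was not called (adjusted p = 0.25 and 0.918). *Sele*, with 1 to 12 counts per mouse, was not tested.

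Other alpha chains that leukocytes use did not all follow *Itgal* and *Itga4*. Of 6 such chains, 3 were called lower and 1 higher in *Tlr7* KO, and 1 lower in *Ifnar1* KO, but these counts rest largely on *Itgad* and *Itga2*, which passed the filter on low values only through WT. *Itgax* (CD11c), of dendritic cells and macrophages, ran from 2.23 to 6.63 CPM in WT and from 1.44 to 3.09 CPM in *Tlr7* KO, where its log2 fold change was -1.29 (adjusted p = 0.0204). In *Ifnar1* KO it was -1.87 (adjusted p = 0.0510). *Itgam* (CD11b), the Mac-1 chain of myeloid cells, ran from 2.32 to 5.40 CPM in WT and from 3.30 to 5.97 CPM in *Tlr7* KO, and its estimates were 0.02 (95% interval -0.61 to 0.64, adjusted p = 0.967) and -0.27 (-1.05 to 0.52, adjusted p = 0.595). Both chains pair with that of *Itgb2*, and the difference between them was not tested. *Itgad* had 33, 5 and 33 counts in the WT mice and 2 to 8 counts in the KO mice, and *Itga2* had 13, 4 and 23 counts in the WT mice and 1 to 4 counts in the KO mice. A gene that enters the tests through WT alone had to be lower in KO, so nothing is read from these calls, and without them *Itgax* is the chain called lower in *Tlr7* KO and none is in *Ifnar1* KO. *Itga2b*, the platelet and megakaryocyte chain, was higher in *Tlr7* KO by 1.13 (adjusted p = 0.0404) and had 0.48 in *Ifnar1* KO (adjusted p = 0.548). *Itga1*, also expressed by stroma, had 0.11 and 0.27 (adjusted p = 0.504 and 0.265).

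Of 13 integrin chains of other tissues tested, 3 were called lower in *Tlr7* KO, where 17.4% of all genes were, and 1 in *Ifnar1* KO, where 12.4% were. None was called higher, and the medians were -0.31 and -0.46. *Itga11* enters these medians although it was tested through WT alone, with 13 to 27 counts in WT. It had 4 to 10 counts in *Tlr7* KO and 3 to 10 in *Ifnar1* KO mice. The shares called lower are near those of all genes. *Itgb3*, which pairs with the chains of *Itgav* and *Itga2b*, fell in both by 2.30 and 2.49 (adjusted p = 0.00625 and 0.0262). *Itga7*, a muscle chain, and *Itgb8* were called in *Tlr7* KO at -1.55 and -0.88 (adjusted p = 0.0497 and 0.0179) and had -2.29 and -0.93 in *Ifnar1* KO (adjusted p = 0.0755 and 0.0534). *Itga7* had 7 to 22 counts in WT and 0 to 7 in the KO mice, so that it too was tested through WT alone and its call is not read further, and the muscle markers, as given, differed widely between these libraries.

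Of 6 ligand genes tested, the same 3 were called lower in both KO groups (17.4% and 12.4% of all genes) and none was called higher. *Vcam1*, the endothelial ligand of VLA-4, ran from 12.6 to 23.0 CPM in WT, from 2.80 to 7.65 CPM in *Tlr7* KO and from 0.670 to 3.85 CPM in *Ifnar1* KO mice, without overlap with WT. Its estimates were -2.30 (adjusted p = 0.00218) and -3.23 (adjusted p = 0.0216). *Icam1*, a ligand of LFA-1 induced in inflamed tissue, had -1.79 and -2.37 (adjusted p = 0.00329 and 0.0338), and *Icam2*, of endothelium and leukocytes, had -2.56 and -2.50 (adjusted p = 0.00681 and 0.0260). *Icam2* rested on 93, 20 and 87 counts in the WT mice, 2 to 16 in *Tlr7* KO mice and 6 to 13 in *Ifnar1* KO mice. Its mean count in *Tlr7* KO was below the one asked of WT, so its call there is not read, which leaves 2 of the 3. The other 3 were not called. *Cdh1*, which encodes the CD103 ligand E-cadherin, ran from 46.1 to 53.1 CPM in WT, from 42.6 to 52.2 CPM in *Tlr7* KO and from 41.0 to 62.6 CPM in *Ifnar1* KO mice. Its interval was -0.31 to 0.09 in *Tlr7* KO and -0.38 to 0.37 in *Ifnar1* KO (adjusted p = 0.382 and 0.986). *F11r*, encoding the junctional protein JAM-A, had 0.17 and 0.39 (adjusted p = 0.243 and 0.0902), and *Fn1* (fibronectin) -0.09 and -0.21 (adjusted p = 0.885 and 0.780). *Icam4* and *Madcam1* were not analysed here. Endothelial markers did not move as one, since *Pecam1* and *Cdh5* were called lower in both KO groups, *Kdr* was called higher in *Tlr7* KO, and 3 of the 6 were called in neither. Of 6 fibroblast markers, 2 were called lower in each KO group, against the same 17.4% and 12.4% of all genes.

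Genes that act on integrin activation inside the cell were next. Of 18 tested, 11 were called lower in *Tlr7* KO and 9 in *Ifnar1* KO, none higher, where 17.4% and 12.4% of all genes were called lower, with medians of -0.78 and -0.56. *Rasgrp2*, which encodes an exchange factor for RAP1, had -3.11 in both *Tlr7* KO and *Ifnar1* KO (adjusted p = 0.00414 and 0.0254). *Skap1*, an adaptor of T cells, had -1.86 in *Tlr7* KO (adjusted p = 0.0208). With 4, 17 and 1 counts in *Ifnar1* KO it was tested there through WT alone, so that its call, 1 of the 9, is not read. *Cytip*, a binding partner of cytohesin in leukocytes, had -2.22 and -2.90 (adjusted p = 0.00320 and 0.0216). *Fermt3*, the kindlin of blood cells, which binds beta-chain tails, fell by 1.68 and 2.42 (adjusted p = 0.00889 and 0.0235). *Cyth1*, encoding cytohesin-1, was lower in *Tlr7* KO than in *Ifnar1* KO by 0.47 on the log2 scale (adjusted p = 0.0390), the single gene of these 18 called between the KO groups, where 1.79% of all genes were.

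Enzymes that decorate PSGL-1 with the sugars and sulfate that selectins recognise were called in part. Of 10 tested, 5 were called lower and 1 higher in *Tlr7* KO, and 4 lower in *Ifnar1* KO, beside the 17.4% and 12.4% of all genes called lower, with medians of -0.91 and -1.57. *Gcnt1*, which builds the core 2 branch, had -1.83 (adjusted p = 0.00996) and -2.02 (adjusted p = 0.0588). The sialyltransferase genes *St3gal6* and *St3gal3* had -1.48 and -1.04 in *Tlr7* KO (adjusted p = 0.0220 and 0.0209). With 10, 12 and 5 counts in *Ifnar1* KO, *St3gal3* was tested there through WT alone, so that its call, 1 of the 4, is not read. *C1galt1*, which makes the core 1 sugar, fell by 1.94 and *St3gal4* by 1.46 in *Ifnar1* KO (adjusted p = 0.0439 and 0.0346). *Fut4* was called higher in *Tlr7* KO, by 0.66 (adjusted p = 0.0321), with 21.8 to 44.3 CPM in WT and 48.5 to 63.3 CPM in *Tlr7* KO mice. *Fut7*, the fucosyltransferase of leukocyte selectin ligands, had 9 to 25 counts in WT and 0 to 10 counts in KO mice. It was not called in either KO group. As it too was tested through WT alone, its estimates are not read, although they enter the medians of this list.

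**Figure D5:**
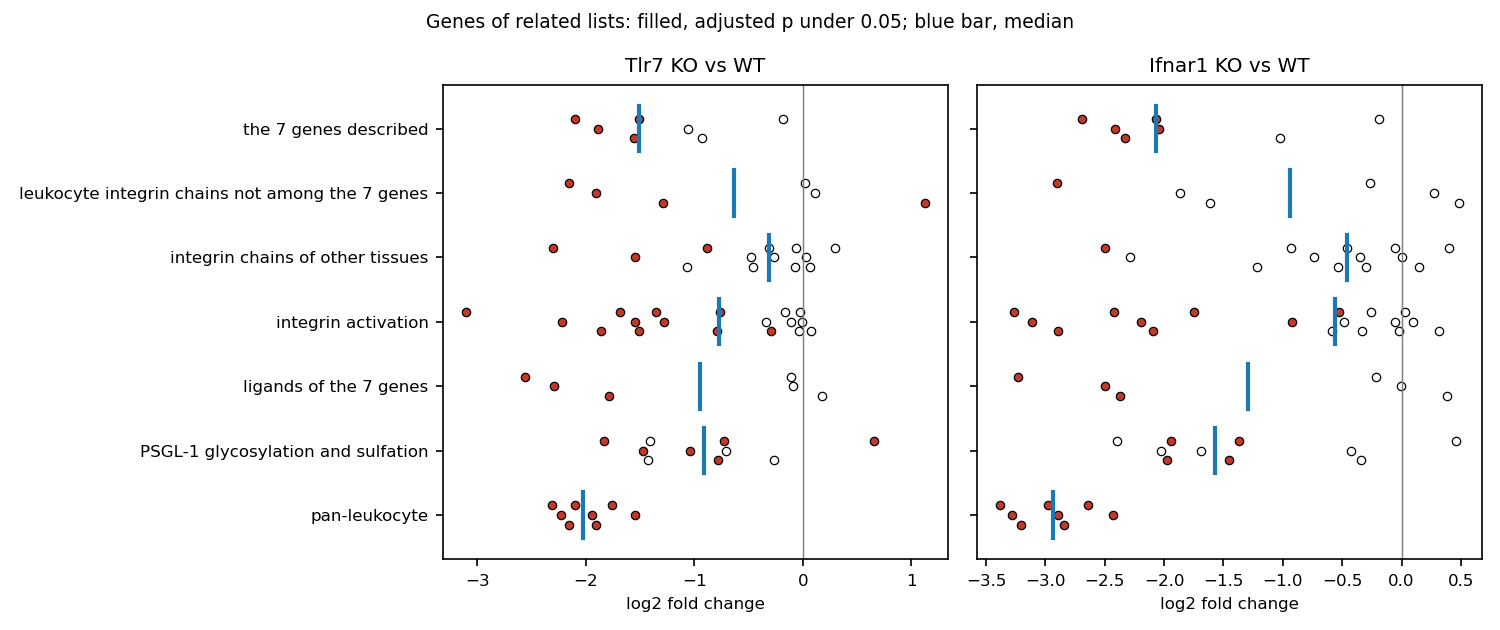
Log2 fold changes of the 7 genes, of 5 related lists and of the pan-leukocyte markers against WT, with a point per gene, filled where the adjusted p was under 0.05, and a blue bar at the median. The median of the 7 genes, -1.51 in *Tlr7* KO and -2.07 in *Ifnar1* KO, lies between those of the other integrin chains and that of the pan-leukocyte markers. The medians of the other integrin chains include *Itgad*, *Itga2*, *Itga7* and *Itga11*, which were tested through WT alone, so nothing is read from this order.

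The genes nearest to each of the 7 in pattern were found by the root mean square difference in mean-centred log2 CPM over the 11 mice, among the 13937 genes tested. For *Itgal* they were *Tbx21*, *Itgb2* and *Cd74* (0.177, 0.216 and 0.217). *Itgb2* was nearest to *Pld4*, *H2-Q4* and *Gsdmd* (0.184, 0.185 and 0.187), and *Itgal* came at place 12 for it. *Itga4* was nearest to *Wipf1*, *Adgre5* and *Nuak2* (0.147 to 0.160), *Itgb7* to *Unc13d*, *Sash3* and *Il4i1* (0.190 to 0.247), and *Selplg* to *Samhd1*, *Bak1* and *Shisa5* (0.159 to 0.171). *Itgb1* was nearest to *Kansl1*, *Ski* and *Ppil2* (0.0503 to 0.0624). For *Itgae* the nearest genes, *D16Ertd472e*, *Hunk* and *Tubb2b*, were farther off (0.334 to 0.352), and its partner *Itgb7* came at place 8330. A gene with little spread is near many genes by this measure, which holds for *Itgb1*, and all 11 points share depth and group differences, so these lists are a description only.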

How the data were processed

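RNA from 1 lacrimal gland per male NOD mouse was sequenced on an Illumina HiSeq instrument. The authors estimated transcript abundance with salmon, summed it to genes with tximport, and deposited a table of counts per gene. Its name calls the values normalized, but they are whole, their totals differ between mice, and so do their TMM-scaled library sizes, which normalization by size factors would have made nearly equal. They were read as not normalized, and another normalization is not excluded. The submitters' notes also name HISAT2 2.1.0 and the mm10 build. A second deposited count table, whose counting tool is not given in the sources used here, served as an alternative, and 1 column of per-sample values, named as *Ifnar1* KO, matched no sample and was not used. Mice were grouped by their labels. Whether litters or cages were shared is not given, so p-values measure the spread between these mice.

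Each pair of groups was fitted with edgeR 4.0.16 (TMM, quasi-likelihood, R 4.3.3) on the 13937 genes with at least 30 counts in WT, and a gene was called at a Benjamini-Hochberg adjusted p under 0.05. Log2 CPM used a prior count of 2. Ratios between genes were compared by two-sided exact permutation tests over all splits of the mice. Counts were simulated over 13937 genes with 200 of them changed, up or down. For *Tlr7* KO against WT the test recovered 63% of genes changed by a log2 fold of 1 and 79% of those changed by 2. For *Ifnar1* KO it recovered 37% and 71%, and false calls numbered 12 and 9. In the data 4564 and 2677 genes were called, far more than were changed in the simulation. The recovered shares therefore do not give the power of the reported calls. All 7 genes, the lists of related genes and markers, and the 3 genes nearest in pattern were named by rules on gene lists. The 7 genes and the lists were chosen with earlier results of these data known, and some listed genes are not reported here. Alternatives were DESeq2 1.42.0, other scalings, filters, prior counts and gene lengths, a single fit, the second table, a replicate block and leaving out each mouse. Gene positions are from GENCODE M21 (GRCm38), and promoters from RefSeq (GRCm38.p6).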

Additional observations from a re-analysis of the deposited data

Results flagged for a closer look

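Of 19 sets of values from *Tlr7* KO mice that were screened for a mouse far from the others, 1 stood out. *Itgb2* was at 8.74 CPM in *Tlr7* KO 2, and its gap to the next mouse was 0.752 of the range of the group, above Dixon's limit of 0.71 for 5 samples. About 1 in 20 such sets would be expected by chance. The same mouse had the highest level of its group for *Itgal*, *Itga4*, *Itgb7* and *Selplg*. Without it, the log2 fold change of *Itgb2* in *Tlr7* KO against WT was -1.79 in place of -1.55 (edgeR, adjusted p = 0.00533).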

How the results depend on the processing

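With *Tlr7* KO against WT, all 7 genes kept a lower estimate under every alternative run. DESeq2 called 7 of them, scaling by library size alone 7, and leaving out a mouse 4 to 7, where 4599, 4398 and 2600 to 6663 of all 13937 genes were called (4564 in the reported fit). A filter by filterByExpr gave 5 calls, *Itgb1* being added, where 4409 of all 13634 genes tested were called. The second count table also gave 5, *Itgb1* being added, where 4009 of all 13050 genes tested were called. An adjusted p under 0.01 gave 3, *Itgb7* being lost, where 1969 of all 13937 genes were called. With *Ifnar1* KO against WT all 7 estimates also stayed lower, and leaving out a mouse gave 0 to 5 calls (0 to 4666 of all genes), the adjusted p of the 5 called genes running from 0.0704 to 0.152 in the omissions that gave 0. An adjusted p under 0.01 gave 0 calls there, where 1 of all 13937 genes was called. The size factors of DESeq2 gave 4, *Itgal* being lost, where 2681 of all genes were called. Between the KO groups leaving out a mouse gave 0 to 2 calls (85 to 877 of all genes). Estimates near 0 between the KO groups turned sign. *Itgae* was at -0.13 with library size alone, at -0.051 in the second count table and at -0.33 to 0.52 when a mouse was left out, and *Itgb1* then ran from -0.068 to 0.068, *Itga4* minus *Itgb7* from -0.15 to 0.31 and *Selplg* minus *Ptprc* from -0.41 to 0.087. With the pan-leukocyte markers in place of *Ptprc*, *Itgb7* was at -0.22 in *Tlr7* KO. The cause was not tested. Counts of 13 to 65 for *Itgae* in KO mice limit what can be said of it.

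The replicate numbers are shared by the groups, but did not pair the mice, since deviations of same-numbered mice correlated at -0.440 to 0.0305 for each KO against WT and at 0.0641 to 0.340 between the KO groups. In the latter, every *Ifnar1* KO mouse correlated best with the *Tlr7* KO mouse of its own number, which is a hint from the data and not from the design. With a replicate block 0 genes were called in *Tlr7* KO (2 at an unadjusted p under 0.05 in edgeR) and 0 in *Ifnar1* KO (5 at an unadjusted p under 0.05), where 14 and 0 of all genes were called. Between the KO groups the block gave 2 calls, *Itgb2* and *Selplg*, with 502 of all genes called against 250 without it.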
